A study of Mus musculus with 2084 samples.

Results

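Cells sorted from the ventricular-subventricular zone (vSVZ, the stem cell niche along the lateral ventricles) of naive wild-type mice through a gate titled ASTRO were compared with cells sorted through a gate titled NSC. The members were all cells of these gates from the letters pA, pB and pC in the main RNA count matrix: 89 cells, 48 of the ASTRO gate and 41 of the NSC gate, of 2084 labelled cells in the series and 2584 cells in that matrix. Every cell was WT and naive, and WT mice received neither tamoxifen nor ischemia; for the WT mice, strain and age were not given in the labels. A letter stands for a biological replicate of 1 or more mice, and plates held cells of individual or of pooled mice. The ASTRO gate held 11, 14 and 23 cells in pA, pB and pC, and the NSC gate 9, 15 and 17. RNA was read by Smart-seq3, a full-length single-cell method, as the transcriptome part of scNMT-seq, which also profiles methylation and accessibility of the same cell. The antibody panel, listed for all conditions and tissues together, was directed at Ter119, CD45, CD9, Prominin1, PSA-NCAM, O4 and GLAST. Which of these defined the ASTRO and NSC gates is not stated in the labels. Cells of the NB gate (67 cells) and the OLIGO gate (50 cells) of the same letters entered the fits to estimate the spread, and so also bore on which genes passed the filter on low counts.

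In the adult vSVZ, quiescent neural stem cells carry many astrocyte genes, among them the glutamate transporter GLAST and the water channel aquaporin 4. On activation they enter the cell cycle, become transit-amplifying progenitors (TAPs) and then neuroblasts, which migrate to the olfactory bulb and carry doublecortin and polysialylated NCAM. Oligodendrocytes, the myelin-forming cells, lie in and beside the same tissue. The series labels the cells of the gates used here as qNSC1 or qNSC2 (quiescent), aNSC (activated), TAP, neuroblast or oligodendrocyte. Other gates of the series also held cells with an astrocyte label. The labels may rest on the same transcriptomes, so the agreement of a label with its markers is a description.

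Counts per cell differed between letters more than between gates. Cells of the 2 gates held 8606 to 1419732 counts. Median counts per cell were 655140, 980112 and 144357 in the ASTRO gate (pA, pB, pC) and 648839, 898974 and 108815 in the NSC gate. Mitochondrial genes took a median of 3.04, 4.13 and 1.18% of counts against 4.46, 5.07 and 0.902%. No 2 cells had identical counts.

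The gates held different mixes of labelled cells. In the ASTRO gate 14 cells were qNSC1, 5 qNSC2, 11 aNSC, 8 TAP and 10 neuroblast. In the NSC gate 27 were qNSC1, 2 qNSC2, 3 aNSC, 1 TAP and 8 oligodendrocyte. None of the 48 ASTRO cells was labelled oligodendrocyte, which allows a share of up to 6.25% when a count of 0 is read as at most 3 cells, and none of the 41 NSC cells was labelled neuroblast, which allows up to 7.32%. The exact Clopper-Pearson upper bounds are 7.40% and 8.60%; these limits pool the cells of 3 letters and cover counting error only. No cell of either gate was labelled as an astrocyte.

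Neuroblast-labelled cells made up 9.09% of the ASTRO gate in pA (1 cell, exact Clopper-Pearson 95% interval 0.23 to 41.3%), 28.6% in pB (4 cells, 8.39 to 58.1%) and 21.7% in pC (5 cells, 7.46 to 43.7%). The label was present in the ASTRO gate and absent from the NSC gate in 3 of 3 letters, a mean difference of 19.8 ± 9.88 percentage points (SD, n = 3). aNSC-labelled cells were also more frequent in the ASTRO gate in 3 of 3 letters, by 15.1 ± 2.78 points (SD, n = 3). qNSC1-labelled cells were less frequent in 3 of 3 letters, with 54.5, 28.6 and 17.4% of the ASTRO gate against 77.8, 46.7 and 76.5% of the NSC gate, a difference of -33.5 ± 22.3 points. Oligodendrocyte-labelled cells made up 11.1% of the NSC gate in pA (1 cell), 46.7% in pB (7 cells) and none of the 17 cells in pC, which allows up to 17.6%. TAP-labelled cells reached 30.4% of the ASTRO gate in pC but none of its 11 cells in pA. The exact permutation test over 3 letters (two-sided sign flips) gave p = 0.25 for qNSC1, aNSC and neuroblast and 0.5 for the other labels, adjusted p = 0.5 over the 6 labels; 3 pairs cannot give less than 0.25. The bars of label shares show that the mix also varied between letters of 1 gate.

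**Figure D1:**
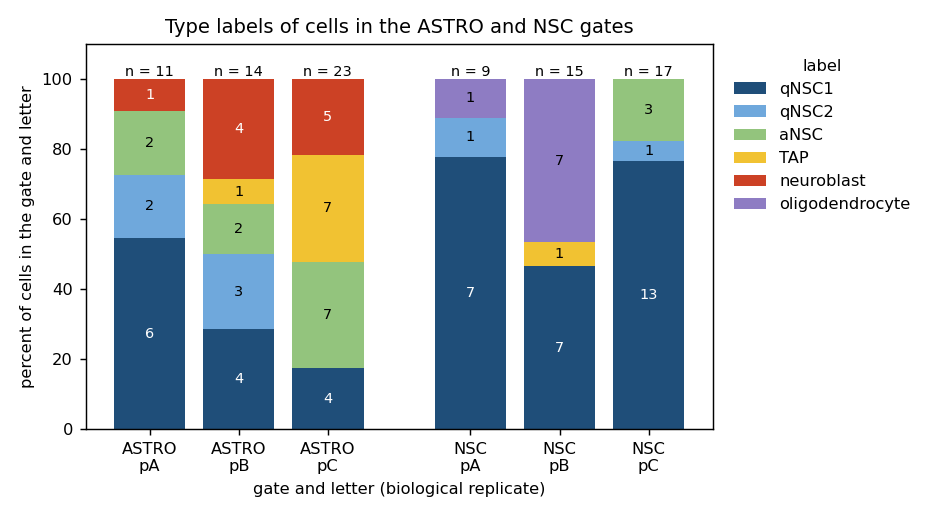
Percent of cells with each type label (y axis) in each gate and letter (x axis); numbers in the bars are cells and n is the number of cells in the bar. Red neuroblast segments appear in the 3 ASTRO bars (1, 4 and 5 cells) and purple oligodendrocyte segments in 2 of the 3 NSC bars (1 and 7 cells).

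Marker lists differed widely between labels, and in TAP-labelled cells the neuroblast list also differed between gates. The summed level of 24 neuroblast genes, in CPM (counts scaled to the cell's total), had a median of 21230 in the 10 neuroblast-labelled ASTRO cells (range 10410 to 27930). The 62 neuroblast-labelled cells of the NB gate had a median of 20940 (10200 to 30950). TAP-labelled ASTRO cells lay at 9973 (1528 to 18660) and aNSC-labelled ones at 1790 (803 to 5389). qNSC1-labelled cells lay at 352 in the ASTRO gate (80.9 to 1479) and 303 in the NSC gate (41.9 to 824). So in the ASTRO gate the list was already present in TAP-labelled cells at a level between those of aNSC and neuroblast cells. The 5 TAP-labelled cells of the NB gate had a median of 19260 CPM (5245 to 23040), near that of its neuroblast-labelled cells. The 1 TAP-labelled NSC cell stood at 3178 CPM, and the 3 aNSC-labelled NSC cells had a median of 3457.

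Myelin genes divided the NSC gate. The 18 oligodendrocyte genes summed to a median of 113500 CPM in the 8 oligodendrocyte-labelled NSC cells (100200 to 136600), against 106900 in the 50 cells of the OLIGO gate. In qNSC1-labelled cells they summed to 538 in the ASTRO gate and 619 in the NSC gate. The 23 astrocyte genes summed to a median of 60580 CPM in qNSC1-labelled ASTRO cells (43860 to 93570) and 72040 in qNSC1-labelled NSC cells (28440 to 102600). They fell along the labels of the ASTRO gate, to 31950 in qNSC2, 9909 in aNSC, 827 in TAP and 569 in neuroblast cells. The gate titled ASTRO thus held 10 neuroblast-labelled cells whose astrocyte genes summed to 0 to 1137 CPM. The gate is called ASTRO here as in the titles, with no claim that its cells are astrocytes.

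**Figure D2:**
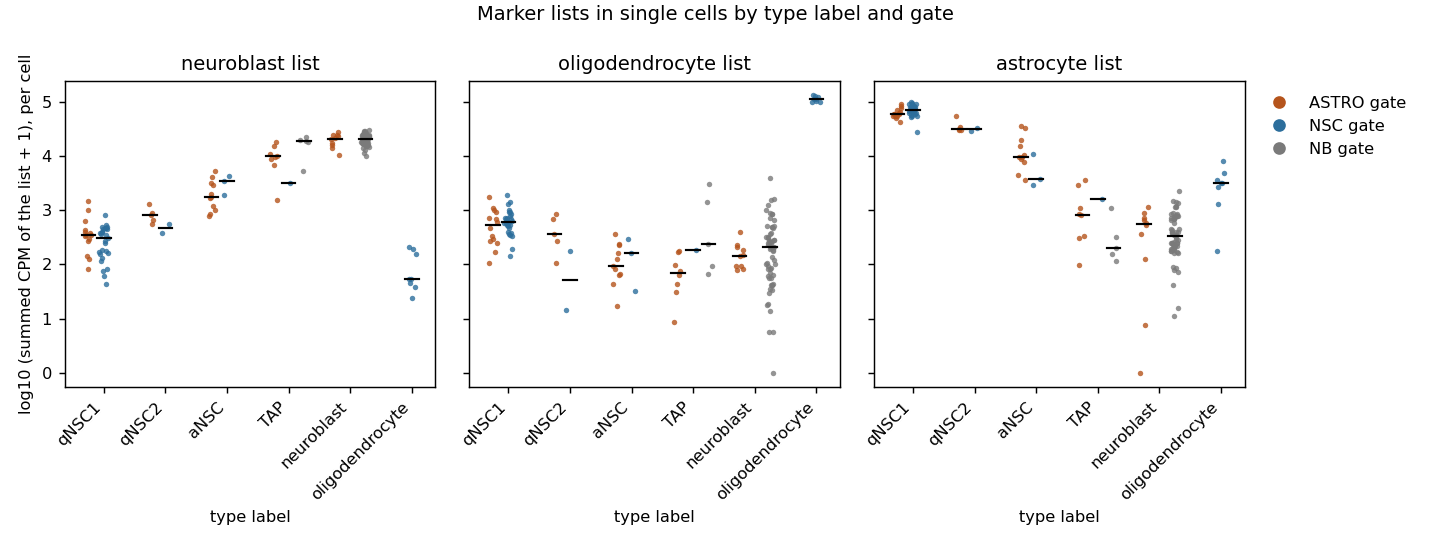
Summed CPM of the neuroblast, oligodendrocyte and astrocyte lists in single cells (y axis, log10 of the sum plus 1) by type label (x axis) and gate (color); black bars are medians. Neuroblast-labelled cells of the ASTRO gate (median 21230 CPM) overlap those of the NB gate (20940), and the 8 oligodendrocyte-labelled cells of the NSC gate stand apart at 100200 to 136600 CPM.

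To compare the gates with mice as replicates, counts of all labelled cells of a gate and letter were summed, and ASTRO was set against NSC within letters with edgeR's quasi-likelihood test. A gene is called here when its Benjamini-Hochberg adjusted p over the 14348 genes tested is under 0.05; levels are CPM of a sum in the order pA, pB, pC; fold changes are log2, ASTRO over NSC, with their standard errors (SE). In such sums fewer cells of a type and less RNA per cell cannot be told apart. Of the 14348 genes, 26 were called higher in the ASTRO gate (0.181%) and 12 lower (0.0836%). The 26 included 8 of the 23 tested genes of the neuroblast list, and 1779 genes had an unadjusted p under 0.05 (12.4%). The calls leaned on single letters: edgeR called 7 genes without pA (1646 at an unadjusted p under 0.05), 0 without pB (1209) and 28 without pC, of which 25 were lower. With only the 6 ASTRO and NSC sums in the fit it called 0 (1285 at an unadjusted p under 0.05).

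The genes that rose included 8 of the neuroblast list, among them Dcx, Sox4, Nrxn3, Sp8 and Cd24a. Dcx, the microtubule-binding protein doublecortin (chrX:143855842-143933311, GRCm38, minus strand), stood at 202, 1133 and 263 CPM in the ASTRO gate and at 2.22, 2.21 and 0.435 in the NSC gate. Every ASTRO sum lay above every NSC sum (8.21 ± 0.62 SE, edgeR adjusted p = 0.0015). Sox4, a transcription factor of early neuronal differentiation, stood at 129, 682 and 1347 CPM against 5.79, 25.1 and 35.6 (4.83 ± 0.45, edgeR adjusted p = 0.0029). Both gates had their lowest Sox4 level in pA. Nrxn3, a presynaptic adhesion protein, stood at 90.0, 244 and 142 CPM against 5.62, 7.82 and 4.78 (4.66 ± 0.42, edgeR adjusted p = 0.0027). Sp8, a transcription factor of olfactory bulb interneurons, had 85, 196 and 267 counts in the ASTRO gate and 0 in all 3 NSC sums, at least 144-fold higher against a floor of 3 counts over the NSC gate (edgeR adjusted p = 0.024). Cd24a, a surface protein of neuroblasts, stood at 33.6, 343 and 459 CPM against 0.17, 0 and 2.61 (8.94 ± 1.08, edgeR adjusted p = 0.018).

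Other called genes that rose have differing roles, and Stmn2, Nsg2 and Igfbpl1 among them are also on the neuroblast list. Stmn2, a tubulin-binding protein of growth cones, stood at 79.3, 194 and 914 CPM against 1.02, 0.474 and 0. Nsg2, an endosomal protein of neurons, stood at 30.2, 140 and 190 CPM against 0.17, 1.03 and 1.30. For Islr2, an axon guidance protein, the levels were 43.6, 83.9 and 132 CPM against 0.341, 0 and 0.869. Igfbpl1, secreted by young neurons, stood at 32.7, 136 and 202 CPM against 0.17, 0.869 and 0. In each of these 4 genes the lowest ASTRO level was that of pA, the letter with 1 neuroblast-labelled cell. Cdca7, a chromatin factor of cycling cells, stood at 54.6, 210 and 536 CPM against 6.48, 8.69 and 39.1 (3.94 ± 0.52, edgeR adjusted p = 0.024). The remaining 16 genes that rose included the neuronal splicing factor Srrm4, the neuronal transcription factor Myt1l, the kinesin Kif5c and the actin-binding peptide Tmsb10. The smallest called rise was that of Snrpd1, a core protein of the spliceosome, at 2.01 ± 0.32.

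The genes that fell had most of their NSC counts in oligodendrocyte-labelled cells, and none of the 12 is on the oligodendrocyte list. Tspan2, a tetraspanin of oligodendrocytes, stood at 1.56, 1.04 and 0.271 CPM in the ASTRO gate and at 614, 1886 and 2.61 in the NSC gate (-8.99 ± 1.49, edgeR adjusted p = 0.049). Its NSC level in pC, where no cell had the oligodendrocyte label, rested on 6 counts, all from aNSC-labelled cells. Gpr37, a receptor of myelinating cells, stood at 17.8, 25.9 and 9.74 CPM against 200, 431 and 36.1 (-3.30 ± 0.50, edgeR adjusted p = 0.035). Gsn, the actin-severing protein gelsolin, stood at 41.2, 26.7 and 7.85 CPM against 218, 382 and 126 (-3.38 ± 0.55, edgeR adjusted p = 0.044). Map7, a microtubule-associated protein, had the lowest p of the genes that fell, at 2.29, 9.24 and 1.62 CPM against 176, 448 and 20.0 (-5.42 ± 0.71, edgeR adjusted p = 0.024). Ptprd, a receptor tyrosine phosphatase, stood at 69.7, 67.0 and 28.7 CPM against 628, 1700 and 135 (-3.52 ± 0.50, edgeR adjusted p = 0.032).

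Adora1, the adenosine A1 receptor, had NSC levels of 73.5, 78.3 and 45.6 CPM against 8.66, 3.47 and 10.3 in the ASTRO gate (-3.34 ± 0.53, edgeR adjusted p = 0.042). Olfml1, which encodes a secreted olfactomedin-like protein, stood at 31.3, 22.2 and 2.71 CPM against 194, 199 and 39.1 (-3.08 ± 0.51, edgeR adjusted p = 0.049). Synj2, a phosphoinositide phosphatase, had 2 counts in the ASTRO gate as a whole and 229, 1467 and 3 in the NSC sums. Atp8b1, a phospholipid flippase, had 0 counts in all 3 ASTRO sums and 38, 472 and 12 in the NSC sums, at least 221-fold lower against a floor of 3 counts over the ASTRO gate. Crybg3 stood at 4.57, 0.347 and 0.812 CPM against 64.3, 48.5 and 9.56. The other 2 genes that fell carry the names Gm21680 and Gm21663. Several named genes overlap another annotated gene on the opposite strand (among them Tspan2 with Tspan2os, Adora1 with Mybph, Synj2 with Serac1, Crybg3 with Riox2). Others overlap a gene on the same strand, such as Gsn with Gm43128 and Islr2 with Islr. The labels do not state the strand setting of the counting, so reads from such pairs cannot be told apart.

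**Figure D3:**
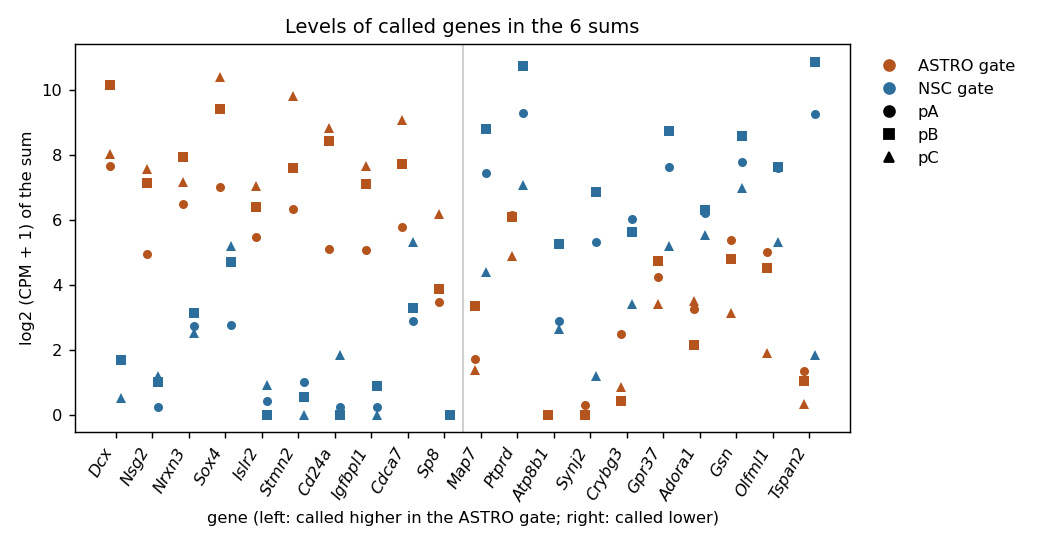
Levels of the 20 named genes in the 6 sums (y axis, log2 of CPM plus 1); color is the gate and symbol the letter. The 10 genes on the left were called higher in the ASTRO gate and the 10 on the right lower; NSC levels of Tspan2 in pC (2.61 CPM) and Synj2 in pC (1.30 CPM) lie near the ASTRO levels.

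The counts behind these genes came from few cells of few labels. Of the Dcx counts of the ASTRO gate, 83.2% came from neuroblast-labelled cells and 16.7% from TAP-labelled cells, and qNSC1-labelled cells gave 0.047%. In pA the single neuroblast-labelled cell gave 99.8% of the Dcx counts and 99.7% of the Stmn2 counts. In pC, TAP-labelled cells gave 40.3% of Dcx and 44.4% of Stmn2. Over the 26 genes that rose, neuroblast-labelled cells gave a median of 70.8% of the ASTRO counts (21.6 to 99.5%), and over 50% for 25 of the 26. These cells gave 21.5% of all ASTRO counts. Snrpd1 was the exception at 21.6%, with 41.6% from TAP-labelled cells. Grik3, a kainate receptor subunit, rested most on 1 cell, a neuroblast-labelled cell that gave 59.8% of its counts.

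On the NSC side, oligodendrocyte-labelled cells gave a median of 92.7% of the counts of the 12 genes that fell (52.9 to 99.9%), and over 50% for 12 of 12. These 8 cells gave 34.7% of all NSC counts. Tspan2 (99.6%) and Synj2 (99.2%) came almost wholly from them. Olfml1 was the most divided, with 52.9% from oligodendrocyte-labelled and 47.1% from qNSC1-labelled cells. Adora1 drew 19.7% and Gpr37 14.6% from qNSC1-labelled cells, and Gsn 12.3% from qNSC2-labelled cells. In pC, where no NSC cell had the oligodendrocyte label, 1 qNSC2-labelled cell gave 88.2% of the Gsn counts, and qNSC1-labelled cells gave all counts of Adora1 and Olfml1.

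Leaving labels out of the sums moved the fold changes. Over the 26 genes that rose, chosen by this contrast, the median fold change was 6.05 with all cells. Without neuroblast-labelled cells it was 3.77, and 26 of 26 were still higher. It was 0.53 with only qNSC1- and qNSC2-labelled cells, where 15 of 26 were still higher. Dcx went from 8.21 to 6.17 without neuroblast-labelled cells (edgeR adjusted p = 0.25) and to -0.77 with only qNSC cells (edgeR adjusted p = 0.92). Nsg2 and Sox4 also changed sign there, to -1.22 and -0.44. Over the 12 genes that fell, also chosen by this contrast, the median went from -5.06 to -1.81 without oligodendrocyte-labelled cells, and 12 of 12 stayed lower. Tspan2 went from -8.99 to -2.88 there and Gsn from -3.38 to -1.62. With only qNSC1- and qNSC2-labelled cells the median of the 12 genes was -1.85, again with 12 of 12 lower.

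The number of calls depended on which label was left out. Without neuroblast-labelled cells edgeR called 0 genes (1385 at an unadjusted p under 0.05), and without both neuroblast- and oligodendrocyte-labelled cells 0 (1287). Without oligodendrocyte-labelled cells it called 68, 63 higher and 5 lower, 25 of them among the 38. The 5 lower ones were Map7, Ptprd, the glutamate transporter Slc1a2 (-1.60), Acot11 (-1.95) and Rcan2 (-2.05); the last 3 were chosen after their values were seen. With only qNSC1- and qNSC2-labelled cells it called 1, Rffl, an endosomal ubiquitin ligase, at 5.35 (edgeR adjusted p = 0.022, 805 genes at an unadjusted p under 0.05).

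Lists of pathway and marker genes are given by counts and medians, beside a median of 0.0027 over all genes tested. Of the neuroblast list, 23 of 23 tested members were higher and 8 were called, with a median of 4.66. Its summed level was 1580, 6755 and 8027 CPM against 268, 335 and 528. Members not called included Sox11 (3.50 ± 0.60, edgeR adjusted p = 0.054) and Meis2 (1.97 ± 0.51, edgeR adjusted p = 0.15), both transcription factors of the neuroblast lineage. From the same list DESeq2 called 19 members, equal weighting of cells also 19, and edgeR 0 without pB. Of 16 activated stem cell and TAP genes, 15 were higher and 0 were called, with a median of 2.31. Ccnd2, a G1 cyclin, stood at 310, 2770 and 6615 CPM against 101.6, 317 and 920 (2.70 ± 0.61, edgeR adjusted p = 0.098). Egfr, the receptor that marks activated cells, stood at 942, 243 and 252 CPM against 236, 156 and 103.

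Of 20 proliferation genes 19 were higher and 0 were called (median 2.31). Their summed level was 428, 1781 and 2653 CPM against 37.1, 1005 and 219, and the single TAP-labelled cell of the NSC gate, in pB, stood at 22640 CPM. Mki67, the classic marker of cycling cells, was 61.0, 409 and 480 CPM against 0.852, 168 and 0.869. The 30 ribosomal protein genes were all higher, with a median of 0.88 and none called. Their summed level followed the letter more than the gate, at 1810, 4495 and 28110 CPM against 1745, 2548 and 10900. Of 17 immediate early and stress genes, which respond fast to stimuli and to tissue handling, 14 were higher (median 0.84) and 0 were called. Their summed level was 186, 882 and 1680 CPM against 193, 331 and 453, higher in 2 of 3 letters. With only qNSC1- and qNSC2-labelled cells 14 of 16 were higher (median 1.60), and with qNSC1-labelled cells alone 8 of 17 (median -0.35). The 5 qNSC2-labelled ASTRO cells ranged from 74.8 to 29160 CPM in this list (median 1140), and the weight of the highest cell in the sums was not tested. The part of handling in the other results was not tested.

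Astrocyte genes lay the other way: 23 of 23 were lower, with a median of -1.17 and 0 called. Slc1a2, the main astroglial glutamate transporter, stood at 18390, 9410 and 3509 CPM in the ASTRO gate and at 31820, 18190 and 13960 in the NSC gate (-1.27 ± 0.33, edgeR adjusted p = 0.15). The astrocyte list summed to 43690, 22720 and 11930 CPM against 72540, 37930 and 53510, and the ASTRO gate was lower in 3 of 3 letters. Of the quiescent stem cell list, which has no gene in common with the astrocyte list, 14 of 20 were lower (median -0.44). Clu, a secreted chaperone of the quiescent list, was lower in 2 of 3 letters.

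All 20 cholesterol synthesis genes were lower (median -0.79), as were 16 of 17 glycolysis genes (-0.66), and 0 were called in either list. Hmgcs1, the enzyme that makes HMG-CoA, stood at 397, 285 and 188 CPM against 767, 402 and 397. All 18 oligodendrocyte genes were lower, with a median of -7.18, and 0 were called. That count depended on the setting. DESeq2 called 18 of 18 lower, and edgeR called 6 with no filter on low counts, 4 without pC and 0 without pA or pB. With cells weighted equally, 5 were called. With only the 6 ASTRO and NSC sums in the fit, 14 of the 18 genes passed the filter on low counts, all lower, with a median of -5.61. The others passed only with the NB and OLIGO sums in the fit. The NSC sum of pC, without an oligodendrocyte-labelled cell, held 425 CPM of the list against 162 in the ASTRO sum of pC. Of the Notch, forebrain patterning and BMP lists, 11 of 16, 5 of 11 and 4 of 11 tested members were higher and 0 were called, with medians of 0.15, -0.05 and -0.10. Markers of cells outside the lineage were low: the microglia list summed to at most 85.6 CPM in a sum, the endothelial list to 172 and the pericyte list to 146. Ptprc, which encodes CD45, stayed under 1 CPM in all 6 sums.

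The gate was then compared within 1 label. The qNSC1-labelled cells, 6, 4 and 4 in the ASTRO gate and 7, 7 and 13 in the NSC gate, were summed per letter; the sums held 552100 to 5781370 counts, with the ASTRO sum of pC the shallowest. Of 14627 genes tested, 0 were called higher and 1 was called lower (0.00684%), and 832 had an unadjusted p under 0.05 (5.69%). In the comparison of all labelled cells that share was 12.4%. The standard error of a gene was larger here, at a median of 1.05 against 0.745, so a difference of the size called above could be missed for many genes.

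The genes that separated the gates as a whole had no call here. Of the 38, 37 had a count in the qNSC1 sums; 0 were called, the lowest edgeR adjusted p was 0.59, and 10 had an unadjusted p under 0.05. Of the 25 such genes that had been higher, 11 were higher in qNSC1-labelled cells, with a median of -0.38. Over all genes tested 45.1% were above 0. Many of the 25 genes lay near the floor here, so their directions rest on few counts. Islr2, whose estimate is that median, had 1 count in the ASTRO sums and 2 in the NSC sums, and Trp53i11 had 1 and 0. Both sets of sums share the qNSC1-labelled cells, so their directions are not independent. Dcx stood at 0.707, 1.60 and 0 CPM in the ASTRO gate and 2.94, 3.20 and 0.557 in the NSC gate (-1.44 ± 0.43, edgeR adjusted p = 0.73). Sp8 had no count in any qNSC1 sum. Snrpd1 had the lowest adjusted p and a fold change near that with all labelled cells, at 27.8, 46.8 and 298 CPM against 5.65, 8.93 and 132 (1.91 ± 0.45, edgeR adjusted p = 0.59). It was higher in 3 of 3 letters, and 1 of the 4 ASTRO cells in pB gave 99.4% of its counts there. Kif5c had a larger estimate than with all labelled cells (4.86 ± 1.40, edgeR adjusted p = 0.73), at 63.6, 0.266 and 54.8 CPM against 0, 0.337 and 4.45, and was higher in 2 of 3 letters. In the ASTRO gate 1 cell gave 71.5% of its counts in pA and 1 cell 96.9% in pC, and pB had 1 count. Of the 12 genes that had been lower, 10 were lower here, with a median of -2.11. Some of the 12 also had few counts, such as Gm21663 (0 in the ASTRO and 1 in the NSC sums) and Atp8b1 (0 and 13). For Olfml1, 47.1% of the NSC counts that chose it came from these qNSC1-labelled cells. Map7 stood at 4.48, 34.9 and 8.57 CPM against 80.4, 63.4 and 25.6 (-2.14 ± 0.59, edgeR adjusted p = 0.69). Olfml1 stood at 25.5, 53.5 and 15.4 CPM against 225, 114 and 50.1 (-2.05 ± 0.57, edgeR adjusted p = 0.70). These 2 genes were lower in 3 of 3 letters but did not pass the test, and Gsn (0.02 ± 0.64) and Adora1 (0.03 ± 0.58) had estimates near 0. A missed threshold does not show that the gates are alike in these genes.

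**Figure D4:**
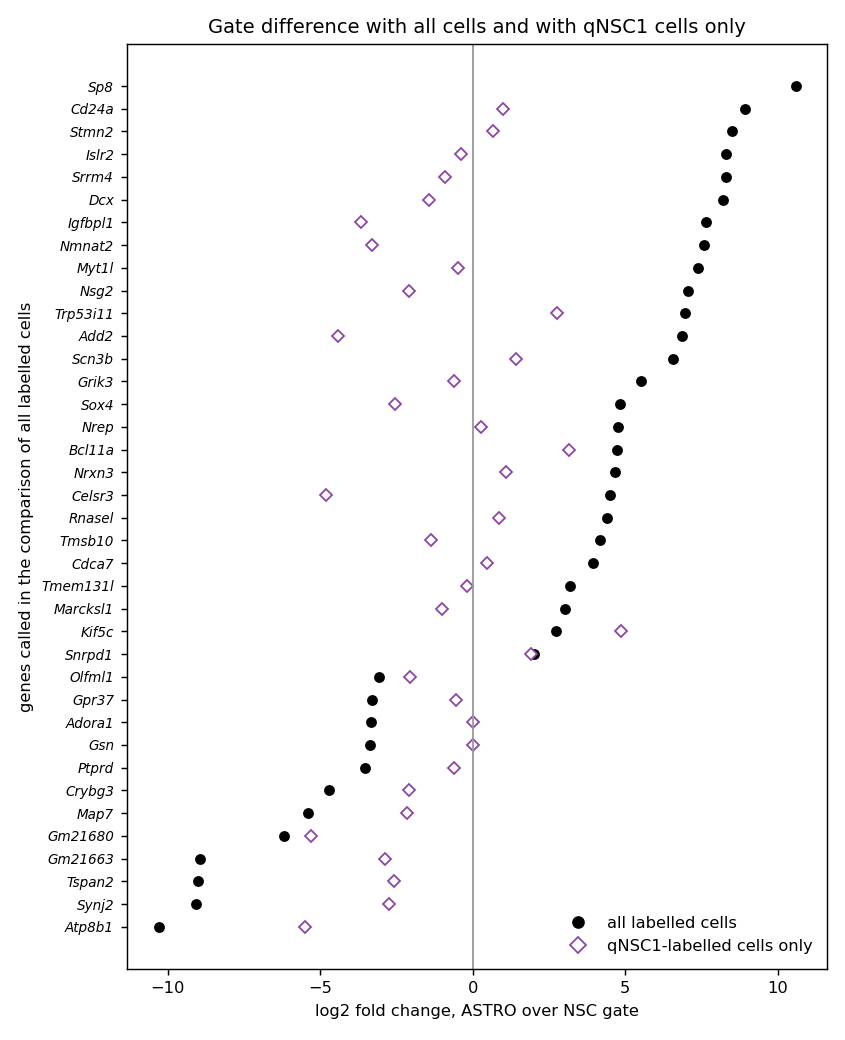
Log2 fold change, ASTRO over NSC gate (x axis), of the 38 genes called with all labelled cells (y axis), with all labelled cells (filled) and with qNSC1-labelled cells only (open). Genes that were higher spread to both sides of 0 with qNSC1-labelled cells (11 of 25 higher, with Kif5c at 4.86 and Snrpd1 at 1.91), genes that were lower lie mostly below 0 (10 of 12), and Sp8 has no open symbol because it had no count there. Many open symbols rest on few counts.

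The gene called lower was Gad1, which encodes the GABA-synthesizing enzyme GAD67 and belongs to the neuroblast list. It had 0 counts in the 14 qNSC1-labelled ASTRO cells and 106, 46 and 22 counts in the NSC sums, at least 41-fold lower against a floor of 3 counts over the ASTRO cells (edgeR adjusted p = 0.049). Its NSC counts came from 7 of 27 cells, with 34.5% from 1 cell, and the 0 of 14 allows a share of up to 21.4% of cells with a count. None of the 8 oligodendrocyte-labelled NSC cells, at a median of 936218 counts against 278898 for qNSC1, had a Gad1 count. In pC the NSC counts came from 1 cell. The call was lost without pA, without pB, without pC, without the block, with only these 6 sums and with cells weighted equally, and Gad1 overlaps the antisense gene Gad1os.

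The other 9 genes with the lowest p were not called. Rffl stood at 94.3, 16.2 and 44.5 CPM in the ASTRO gate against 2.48, 0.169 and 1.67 (5.23 ± 0.71, edgeR adjusted p = 0.052). A single ASTRO cell gave 89.5, 93.4 and 100% of its counts in the 3 letters. Brwd3, a bromodomain protein, stood at 1.41, 3.46 and 0 CPM against 67.1, 165 and 46.2 (-5.92 ± 0.87, edgeR adjusted p = 0.079), with counts in 5 of 14 ASTRO and 15 of 27 NSC cells. Mlx, a partner of glucose-sensing transcription factors, had 4 counts in the ASTRO sums and 546 in the NSC sums, from 16 of 27 cells. Pknox1 (-5.00 ± 0.77, edgeR adjusted p = 0.089) had 97.3% of its NSC counts in pA from 1 cell. Golga4, a Golgi tether, had counts in 11 of 14 and 23 of 27 cells and stood at 66.5, 42.0 and 70.2 CPM against 193, 253 and 210 (-1.91 ± 0.36, edgeR adjusted p = 0.31). Zfp146, Ldlrad4, Tmem178b and Prps2 were likewise lower in 3 of 3 letters.

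Within the qNSC1 label list medians lay nearer 0 than with all labelled cells for the neuroblast, astrocyte and oligodendrocyte lists; the median over all genes tested was -0.09. The neuroblast list had 16 of 23 members higher with a median of 0.42, at a summed level of 355, 687 and 391 CPM against 264, 334 and 335. Activated stem cell and TAP genes had 6 of 16 higher (median -0.56), and proliferation genes 11 of 20 (0.03). Astrocyte genes were still lower for 20 of 23 members, with a median of -0.24 and 0 called. Their summed level was 67830, 57320 and 53530 CPM against 90900, 76670 and 64850, lower in 3 of 3 letters. Oligodendrocyte genes had 15 of 18 lower (-0.85), at 912, 297 and 476 CPM against 1031, 549 and 518. Cholesterol synthesis genes had 15 of 20 lower (-0.41), with no common direction of the sum, which was 2099, 4107 and 1854 CPM against 5099, 2943 and 2639. Quiescent stem cell genes had 11 of 20 higher (0.09).

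**Figure D5:**
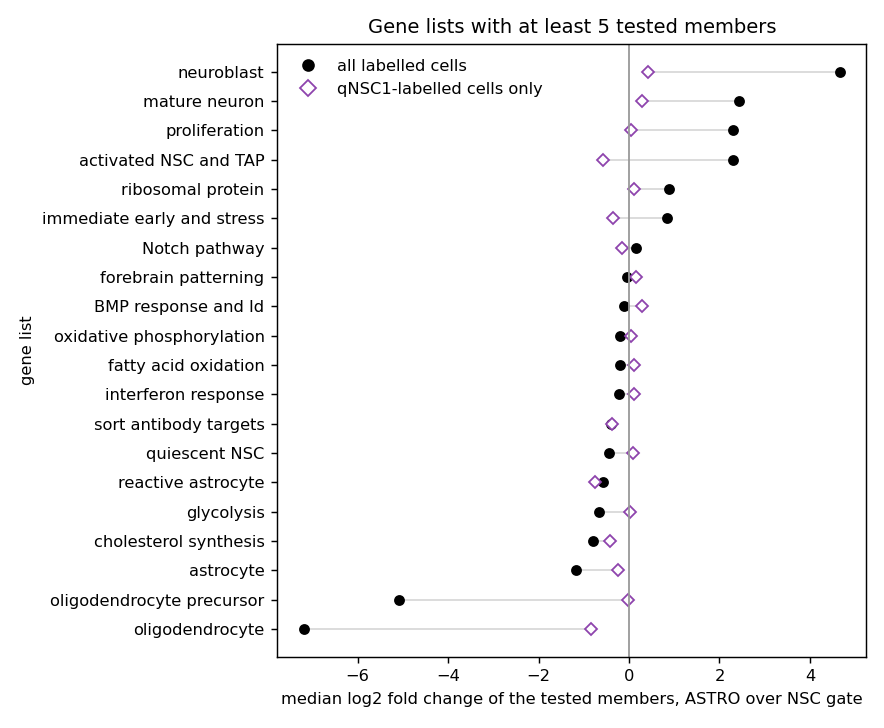
Median log2 fold change, ASTRO over NSC gate (x axis), of the tested members of the 20 gene lists with at least 5 tested members (y axis), with all labelled cells (filled) and with qNSC1-labelled cells only (open). The neuroblast list moves from 4.66 to 0.42, the oligodendrocyte list from -7.18 to -0.85 and the astrocyte list from -1.17 to -0.24.

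No gene behind the sort antibodies passed the edgeR test. With all labelled cells, DESeq2 called 1 of the 8 tested higher and 1 lower. Slc1a3, which encodes GLAST, stood at 5734, 2650 and 1516 CPM in the ASTRO gate and 7504, 3851 and 5508 in the NSC gate (-0.86 ± 0.35, edgeR adjusted p = 0.36). Within qNSC1-labelled cells it was 8486, 6291 and 4949 against 9669, 8084 and 6767 (-0.34 ± 0.56, edgeR adjusted p = 1). It was lower in 3 of 3 letters in both cases. Prom1, which encodes Prominin1, stood at 42.8, 19.03 and 12.2 CPM against 48.9, 20.9 and 29.6. Cd9 stood at 203, 254 and 193 CPM against 283, 368 and 154, and Ncam1, the carrier of polysialic acid, at 547, 710 and 741 against 622, 573 and 506. Of the enzymes that add polysialic acid, St8sia2 was higher in 3 of 3 letters (2.05, 67.0 and 9.74 CPM against 0, 4.58 and 0) and did not pass the test (4.24 ± 1.24, edgeR adjusted p = 0.21). St8sia4 stood at 27.8, 24.2 and 13.5 against 20.8, 11.4 and 10.9 CPM. Ugt8a, needed for the lipids that O4 binds, stood at 1.44, 0.556 and 0.271 CPM against 178, 1141 and 0. Transcript levels do not give the surface protein that the gates read.

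Among single cells, Slc1a3 followed the label. Its median was 6613 CPM in the 14 qNSC1-labelled and 3828 in the 5 qNSC2-labelled ASTRO cells, 2108 in aNSC, 195 in TAP and 21.8 in neuroblast cells, of which 6 of 10 had a count. In the NB gate 48 of 62 neuroblast-labelled cells had a count, with a median of 5.13 CPM. Cd24a went the other way, at a median of 750 CPM in ASTRO neuroblast cells (10 of 10 with a count), 557 in TAP cells (7 of 8), and 0 in aNSC (2 of 11), qNSC1 (2 of 14) and qNSC2 cells (0 of 5).

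Since the NSC gate held no neuroblast-labelled cell, those of the ASTRO gate were compared with those of the NB gate, in the sums of at least 3 cells: 4 and 5 ASTRO cells in pB and pC, and 19, 21 and 22 NB cells in pA, pB and pC. The pA sum of 1 ASTRO cell was left out of the fit. Of 14627 genes, none was called in either direction (0% higher, 0% lower) by edgeR. At an unadjusted p under 0.05 there were 1033 (7.06%), and DESeq2 called 223. The median fold change over all genes was -0.40, and -0.15 with another scaling (relative log expression), so lists are read against that shift. The neuroblast list had 9 of 23 members higher (median -0.33), at a summed level of 19520 and 17320 CPM against 16850, 20590 and 21930.

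All 20 proliferation genes were higher in the ASTRO neuroblast sums (median 1.70), at 4153 and 5500 CPM against 829, 852 and 3139, and none was called. In each letter 1 ASTRO cell gave nearly all of these counts, 98.8% in pB and 98.5% in pC, and the median ASTRO cell stood at 82.9 and 73.6 CPM. The NB gate also held such cells, with highest levels of 14600, 15430 and 29820 CPM. Ncam2, an adhesion protein of olfactory neurons, had the lowest p, at 0.754 and 0 CPM against 46.2, 87.3 and 19.2 (-6.68 ± 0.92, edgeR adjusted p = 0.11). With the single pA cell added to the fit its estimate turned to 0.99 (edgeR adjusted p = 0.99). Cadm2, a synaptic adhesion protein, stood at 4.27 and 1.41 CPM against 42.5, 66.5 and 21.8 (-3.68 ± 0.56, edgeR adjusted p = 0.16). Myo6, an unconventional myosin, was the one gene of the 10 with the lowest p that was higher, at 109 and 56.3 CPM against 17.9, 19.5 and 15.4 (2.29 ± 0.36, edgeR adjusted p = 0.16). Slc1a3 stood at 174 and 9.86 CPM against 29.4, 16.4 and 17.7 (2.09 ± 0.70, edgeR adjusted p = 0.59).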

How the data were processed

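The deposited values are whole-number read counts per gene and cell; the authors used STAR and featureCounts on GRCm38 (mm10), per the submitters' processing notes, with versions, annotation and strand setting not given in the sources used here. Gates come from sample titles and type labels from the sample records. Raw counts were summed per gate and letter and tested with edgeR 4.0.16 (R 4.3.3): TMM factors, filterByExpr, letter as a block, quasi-likelihood F test, Benjamini-Hochberg adjustment over all genes tested. The fit of all labelled cells had 12 sums (4 gates, 3 letters), and the fit by label 14 sums of at least 3 cells. The letters pair the gates, since a letter marks the same mice or pool of mice. Deviations of same-letter sums correlated at 0.339, 0.238 and 0.50 for all labelled cells, 0.163, 0.157 and 0.417 for qNSC1, and 0.308 and 0.436 for neuroblasts. Unlike letters reached 0.194, 0.126 and 0.279 in these comparisons and fell to -0.43, -0.248 and -0.436, each in a pair with pC. The neuroblast deviations of ASTRO pB and pC mirror each other, since only these letters had an ASTRO sum. The pairing therefore rests on the letters and not on these correlations. Doublets were not called. Symbols come from GENCODE M21, which named 35455 of 35606 identifiers.

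The members and gene lists were chosen with earlier results of these data known. Named genes are up to 10 called genes in each direction by lowest p, or the 10 with the lowest p where fewer than 3 were called, the sort antibody targets, and of other lists members with the highest levels and those called. Alternatives were DESeq2 1.42.0, limma 3.58.1 on log2 of the mean CPM per cell plus 5, other scaling, no filter, no block, letters left out and other sets of cells. A few genes are not reported here.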

Additional observations from a re-analysis of the deposited data

How the results depend on the processing

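For all labelled cells, 38 genes were called with the letter as a block and 13 (13 higher, 0 lower) with no block; 20 of 20 named genes kept their direction without the block. DESeq2 with the letter called 852 genes (449 higher, 403 lower), no filter on low counts 99, and cells weighted equally 242; relative log expression scaling gave 39. Leaving out 1 letter gave 0 to 28 calls (0 without pB), only the 6 sums compared 0, sums without neuroblast-labelled cells 0, without oligodendrocyte-labelled cells 68, without both 0, and only qNSC1- and qNSC2-labelled cells 1, where Dcx (-0.77), Nsg2 (-1.22) and Sox4 (-0.44) reversed. For qNSC1-labelled cells, with 1 call, the numbers were 0 with no replicate block, 217 with DESeq2, 2 with relative log expression scaling, 3 with no filter, 2 with cells weighted equally, 0 to 0 with a letter left out (747 to 898 at an unadjusted p under 0.05) and 0 with only the 6 sums. For neuroblast-labelled cells, with 0 calls, they were 0 with no block (911 at an unadjusted p under 0.05), 223 with DESeq2, 6 with cells weighted equally and 0 to 1 with a letter left out; pA was not left out there, as its ASTRO cell was not in the fit, and with a minimum of 1 cell Ncam2 reversed (0.99). With 3 letters, leaving out 1 cannot move a mean difference in label shares by as much as its SD: without 1 letter the neuroblast difference was 15.4 to 25.2 points and the oligodendrocyte difference -28.9 to -5.56 (-5.56 without pB), against -19.3 with all letters. The design has 3 pairs, with sums of 9 to 23 cells for all labels and 4 to 13 for qNSC1. Counts per cell were fewest in pC, so low genes there rest on few counts. The edgeR p-values rest on the spread left after the gate (or gate and label) and the letter are fitted. That spread was pooled over the 12 or 14 sums of a fit, NB and OLIGO sums included, not over the 3 pairs alone. The cause of the differences between settings was not tested.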
